A study of Mus musculus with 2 samples.

Results

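Pericentral-type sinusoidal endothelial cells are described here in 2 single-cell RNA libraries of mouse liver. They were chosen by counts of unique molecular identifiers (UMIs, 1 per captured transcript). Barcodes under 500 UMIs, under 200 genes or over 20% mitochondrial UMIs were first set aside. A kept barcode counted as sinusoidal with at least 3 UMIs of Stab2, Clec4g, Fcgr2b and Kdr together, none of the leukocyte gene Ptprc and fewer than 3 of the venous genes Vwf, Rspo3 and Wnt9b. It counted as pericentral-type when the UMIs of Kit, Wnt2 and Thbd outnumbered those of Efnb2, Dll4, Adam23 and Ntn4, and as periportal-type in the opposite case. The rule found 772 cells in one library and 774 in the other, 1546 of 27814 kept barcodes, beside 474 and 874 periportal-type barcodes.

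Non-parenchymal liver cells came from male mice of 5 months of age on standard chow, by collagenase digestion and 10x Genomics v3 capture. Hep-ADKTg mice (Tg) carried an albumin-promoter transgene that overexpresses adenosine kinase in hepatocytes, Hep-ADKWT mice (WT) served as controls, and neither group had a drug or special diet. Each group is 1 library, and the labels do not say whether it holds 1 mouse or a pool, so genotype, animal, cell preparation and library cannot be told apart. No test between groups was possible, and every interval below is a 95% interval that covers counting error only.

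Liver lobules carry blood from portal vessels along sinusoids to a central vein, and both hepatocytes and the endothelium that lines the sinusoids differ along that path. Sinusoidal endothelial cells are fenestrated and clear macromolecules from blood by endocytosis. Those near the central vein secrete Wnt ligands that maintain the pericentral programme of hepatocytes, whereas Notch ligands and Efnb2 mark the portal side.

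The libraries held 97135016 and 96481752 UMIs in 15663 and 17462 barcodes (WT first here and throughout), of which 12961 and 14853 were kept, with medians of 4915 and 2812 UMIs. Between the libraries, 64 kept barcode sequences were shared, and none was a pericentral-type cell in both. The pericentral-type cells had medians of 5016 and 3590.5 UMIs, and their summed counts were 4238407 and 3409955. Levels are given as CPM, a gene's UMIs divided by these sums and scaled to the usual common total. Hepatocyte transcripts were far more frequent in the Tg cells: a list of 30 hepatocyte genes took 0.700% and 5.19% of the UMIs, from which an estimated 2.94% and 21.7% of all UMIs were hepatocyte-derived. Adk, the targeted gene, stood at 53.3 (46.6–60.7) and 150.1 (137–164) CPM in the pericentral-type cells, of which an estimated 26.3% and 76.0% was hepatocyte-derived. In hepatocyte-rich barcodes (137 and 2471) Adk stood at 477 and 526 CPM; whether 3′ reads capture the transgene's transcript is unknown, so Adk checks neither label.

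The label was checked on endothelial genes outside the rule. Cdh5, the adherens junction protein of endothelium, stood at 908 and 669 CPM in the pericentral-type cells and at 27.6 and 12.6 CPM in all kept barcodes outside the sinusoidal and venous types. Pecam1, an endothelial adhesion protein, stood at 566 and 465 CPM. Eng, a co-receptor for BMP and TGF-beta ligands, stood at 1938 and 1340 CPM. All 3 genes were thus abundant in both libraries and lower in CPM in the Tg cells.

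Among the genes that chose the cells, Stab2, a scavenger receptor for hyaluronan, stood at 1308 (1274–1343) and 1069 (1035–1105) CPM. Clec4g, a C-type lectin of the sinusoid, stood at 2399.7 (2353–2447) and 1929 (1883–1977) CPM. These receptors are shared along the sinusoid: the periportal-type cells held Stab2 at 1255 and 892 CPM and Clec4g at 2985 and 2202 CPM. The pericentral genes, taken as a sum, set the types apart by construction. Kit, a receptor tyrosine kinase, stood at 940.0 and 758 CPM against 357 and 247 CPM in periportal-type cells (chr5:75574916-75656722, GRCm38). Wnt2, a ligand of the Wnt pathway, stood at 605 and 475 CPM against 259.9 and 149 CPM (chr6:17988940-18030585). Thbd, thrombomodulin, which turns thrombin towards anticoagulant protein C, stood at 545 and 298 CPM against 115 and 86.4 CPM (chr2:148404466-148408188). The plot of marker levels shows all 16 genes side by side.

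**Figure D1:**
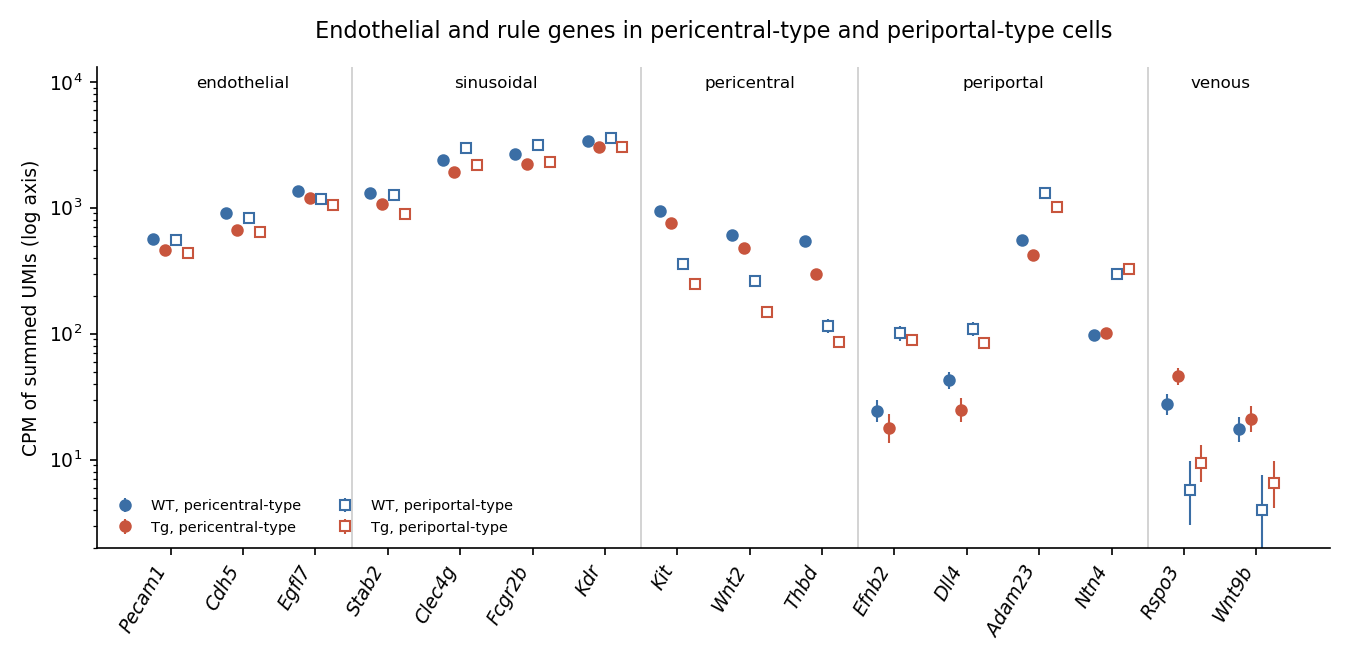
CPM of summed UMIs (log axis) for endothelial genes and rule genes in pericentral-type (filled) and periportal-type (open) cells of both libraries, with exact Poisson 95% intervals. Kit, Wnt2 and Thbd lie above, and Efnb2, Dll4, Adam23 and Ntn4 below, the periportal-type levels in both libraries. The rule compares the summed UMIs of both sets in each cell and does not fix the order of each single gene.

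Kit was the marker most often captured: 88.7% and 88.9% of the pericentral-type cells held at least 1 of its UMIs. Wnt2 was held by 85.4% and 80.6%, and Thbd by 68.3% and 55.6%. All 3 were held by 57.9% (447 cells) and 43.0% (333 cells). After thinning to 2000 UMIs, which left out shallower cells, the share with all 3 was 33.2% of 648 and 22.4% of 617 cells. These genes chose the cells, and thinning equalised all UMIs, hepatocyte-derived ones included. Lymphocyte barcodes held Ptprc, more than 1 UMI of Cd3e, Cd3g, Cd79a and Cd79b together, and no UMI of Stab2, Clec4g, Fcgr2b or Kdr. In these barcodes, with medians of 5447 and 4220.5 UMIs, Kit was held by 1.12% and 1.27%, Wnt2 by 0.320% and 0.185% and Thbd by 0.658% and 0.463%. Barcodes with sinusoidal UMIs were thus left out beforehand, so levels of endothelial genes in them are not an unselected background. The types are not exclusive: 81.0% and 77.3% of the pericentral-type cells also held a UMI of a periportal gene, of which Adam23 was the most abundant, at 551 and 419.9 CPM against 1320.0 and 1013 CPM in periportal-type cells.

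The margin by which pericentral UMIs outnumbered periportal ones had a median of 6 in WT and 3 in Tg. Just inside the rule, at a margin of 1, lay 126 (16.3%) and 163 (21.1%) cells. Just outside it lay 200 and 324 tied barcodes, of which 111 and 178 held no UMI of either set, and 121 and 219 periportal-type barcodes at the mirrored margin of 1. Levels of 3 genes outside the rule are given by margin. Lhx6, a LIM-homeobox transcription factor, went from 18.9 CPM at a margin of 1 to 75.4 CPM at 10 or more in WT, and from 20.5 to 92.2 CPM in Tg. Cdh13, T-cadherin, went from 139.7 to 352 CPM and from 152 to 295 CPM. Ptgs1, cyclooxygenase 1, went from 301 to 601 CPM and from 298 to 558 CPM. Genes not linked to the pericentral side also stood higher at 10 or more than at 1: Efnb1, of the periportal list, at 148 against 56.8 CPM in WT and 131 against 52.9 CPM in Tg, and Stab2 at 1299 against 798 CPM and 1199 against 809.8 CPM. The margin also followed depth, with median UMIs from 1761.5 to 6278 in WT and from 2476 to 4791.5 in Tg. Alb, the hepatocyte gene for albumin, ran the other way, from 1742 to 466 CPM and from 8784 to 2599.7 CPM.

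The rule also admitted barcodes with transcripts of other cell types. Marker genes of other cell types reached summed levels of 4341 and 76.0 CPM for B and plasma cells, 9572 and 2138 CPM for erythroid cells, 1773 and 505 CPM for stellate cells and fibroblasts, 489.8 and 57.2 CPM for mesothelium and 299 and 824 CPM for cholangiocytes. Kupffer cell markers stood at 54.7 and 42.8 CPM, with Timd4 at 0 in WT and Vsig4 and Marco at 0 in Tg. Mesothelial genes took more than 2 of 1000 UMIs in 32 WT and 3 Tg cells, and Thbd stood at 973 and 587 CPM in those. A stricter subset was therefore defined after the data had been seen. It kept cells with at least 4 sinusoidal-gene UMIs, at most 2 UMIs of other cell types' markers and at most 50 hepatocyte-list UMIs per 1000. Erythroid and dendritic cell markers were not among those limited. The subset held 628 of 772 WT cells (81.3%) and 540 of 774 Tg cells (69.8%), with 381 and 573 periportal-type cells. The 3 limits removed 48 and 77, 121 and 38, and 11 and 188 pericentral-type cells, some cells failing more than 1. In the subset Cdh5 stood at 1066 and 881 CPM, the mesothelial genes at 11.8 and 11.0 CPM, and the hepatocyte-derived estimate at 1.78% and 9.28%. Of 5 erythroid genes compared there, 5 were at least 1.5-fold lower in Tg, with a median log2 ratio of -2.82. Values from the stricter subset stand beside those of all cells below.

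Pericentral-type cells made up a smaller part of the zone-typed sinusoidal barcodes in the Tg library. The share was 62.0% (exact Clopper-Pearson interval 59.2–64.7; 772 of 1246) in WT and 47.0% (44.5–49.4; 774 of 1648) in Tg. Thinned to 1000 UMIs it was 63.4% (60.4–66.2) and 51.6% (48.9–54.3), and in the stricter subset 62.2% and 48.5%. Of all kept barcodes they made up 5.96% (5.55–6.38) and 5.21% (4.86–5.58), but the order was turned after thinning, at 5.84% and 6.19% at 1000 UMIs. Thinning left out barcodes below that depth, so 11858 of 12961 and 11265 of 14853 kept barcodes remained. Pericentral-type cells were 692 and 697 of these. The share of kept barcodes also moves with the hepatocyte-rich barcodes, which were 137 in WT and 2471 in Tg. Shares in a suspension depend on digestion and capture, whose part was not tested. The zone type also rests on the UMI balance of the rule genes, whose levels differed between the libraries. Kit, Wnt2, Thbd, Efnb2, Dll4 and Adam23 stood lower in CPM in Tg in both types, and Ntn4 higher. The part of these levels in the share was not tested.

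**Figure D2:**
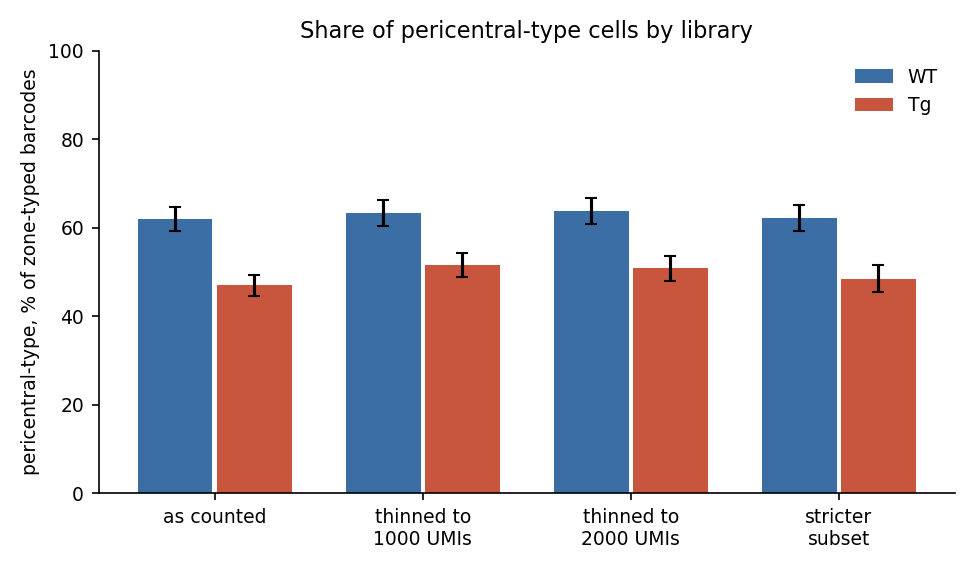
Pericentral-type cells as a percentage of zone-typed sinusoidal barcodes in each library, with exact Clopper-Pearson 95% intervals, as counted, after thinning and in the stricter subset. The WT bars stand between 62.0% and 63.7% and the Tg bars between 47.0% and 51.6%.

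Within each library, pericentral-type cells were set against periportal-type cells, the neighbouring sinusoidal type, over genes with at least 50 UMIs in each library. The genes of the rule are not counted as results. Of 9170 genes, 85 (0.927%) were at least 1.5-fold higher and 31 (0.338%) at least 1.5-fold lower in pericentral-type cells of both libraries. The 85 are 18.4% of the 461 genes (5.03%) past that fold in WT and 34.4% of the 247 (2.69%) in Tg, and the 31 are 15.5% of 200 (2.18%) and 20.5% of 151 (1.65%). Of the 461 and 247 genes, 67.5% and 75.3% had the same sign in the other library, as did 59.5% and 55.6% of the 200 and 151. Over all 9170 genes, 4773 were above 0 and 4397 below in WT, and 5106 and 4064 in Tg. In the stricter subset, 51 of 8194 genes (0.622%) were higher and 32 (0.391%) lower in both. Of the 32, 4 were erythroid genes, which the subset did not limit. The 51 included 1 gene of the Kupffer cell list and 1 of the stellate cell and fibroblast list.

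Lhx6 led the genes higher in pericentral-type cells. In the stricter cells it stood at 4.22 CPM in periportal-type and 69.1 CPM in pericentral-type cells of WT, and at 12.0 and 63.6 CPM in Tg. These are 16.4-fold and 5.30-fold differences (log2 4.03, 3.03 to 5.26, and 2.41, 1.81 to 3.05). Its pericentral levels thus lay close together, while the periportal level was higher in Tg; the difference between the folds was not tested. Lymphocyte barcodes held Lhx6 at 0.229 and 0.413 CPM. Lhx6 lies on chromosome 2 (chr2:36081953-36105408, GRCm38).

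Ramp3, a partner protein that tunes calcitonin-family receptors, stood at 14.8 and 49.9 CPM (periportal-type, pericentral-type) in WT and at 10.7 and 38.9 CPM in Tg, 3.38-fold and 3.63-fold. Lfng, a glycosyltransferase that modifies Notch receptors, stood at 85.4 and 197 CPM and at 58.7 and 150.01 CPM, 2.31-fold and 2.56-fold. Pdgfb, the growth factor that recruits mural cells, stood at 11.1 and 34.7 CPM and at 17.1 and 32.9 CPM. All 3 were higher in pericentral-type cells of both libraries, with intervals above 0. Hes1, a transcriptional target of Notch, ran the other way, at 284 and 168 CPM in WT and at 332 and 159 CPM in Tg. Cdh13 (175 and 363 CPM, 129 and 303 CPM) and Fabp4, a fatty acid chaperone (632 and 1259 CPM, 703 and 1409 CPM), were about as far apart as each other. Plvap, which forms the diaphragms of fenestrae, stood at 137 and 271 CPM in WT and at 102 and 198 CPM in Tg. Ptgs1 stood at 335 and 601 CPM and at 314 and 556 CPM. Prrg3 and Plppr5 completed the 10 highest, at 3.04-fold and 2.03-fold and at 1.91-fold and 2.39-fold.

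On the low side, Msr1, the class A scavenger receptor that binds modified lipoproteins, led in both libraries. It stood at 175 CPM in periportal-type and 17.7 CPM in pericentral-type cells of WT, and at 201 and 24.2 CPM in Tg, 9.92-fold and 8.31-fold lower. Cd36, a fatty acid and thrombospondin receptor, stood at 490.3 and 238 CPM and at 489.7 and 200.3 CPM. Ly6a, a GPI-anchored surface protein, stood at 391 and 214 CPM and at 347 and 153 CPM. All 3 were lower in pericentral-type cells of both libraries. Ltbp4, which anchors latent TGF-beta in matrix, stood at 515 and 283 CPM and at 446 and 236 CPM. Cxcl9, a chemokine that draws T cells, stood at 103 and 60.7 CPM and at 156 and 68.1 CPM. Flrt1, Galnt15, Ifi207, Ccn2 and Tbc1d1 completed the 10 lowest, at 1.69-fold to 2.57-fold lower. Msr1 lies on chromosome 8 (chr8:39581685-39642673, GRCm38).

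**Figure D3:**
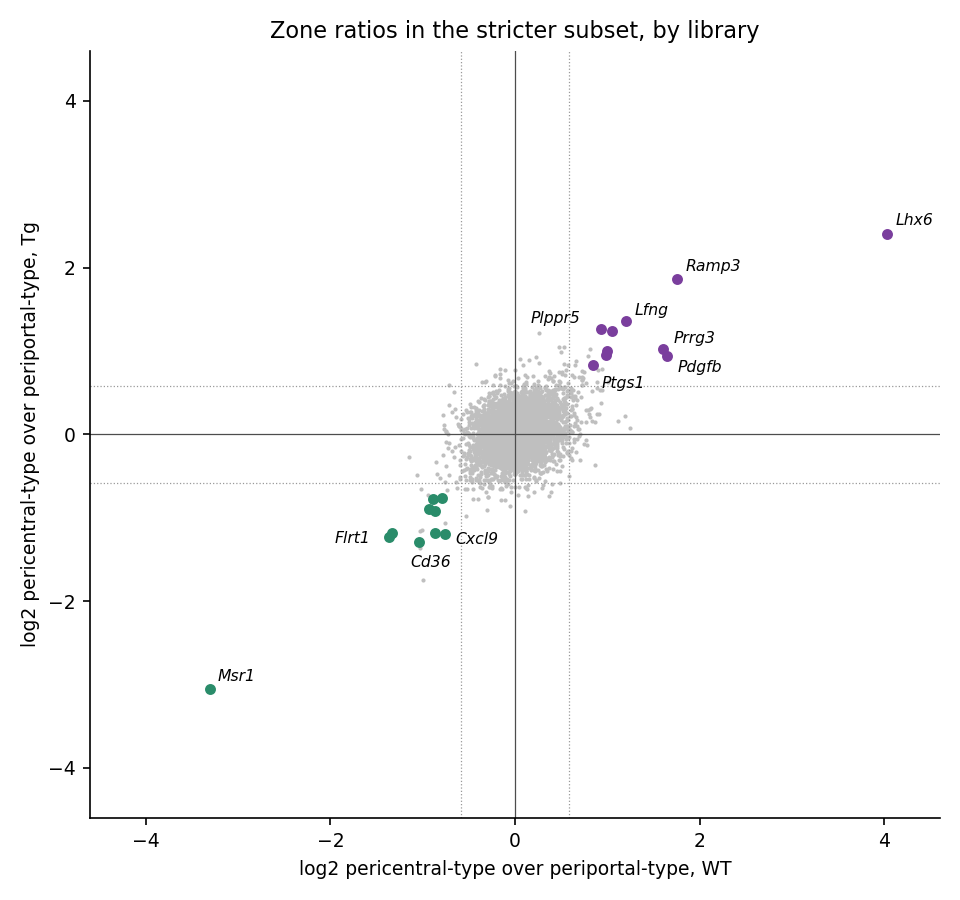
Each point is a gene with at least 100 UMIs in the stricter cells of each library (6280 genes), placed by its log2 ratio of pericentral-type over periportal-type cells in WT (x) and Tg (y); dotted lines mark 1.5-fold. Lhx6 and Ramp3 (purple, 10 highest) and Msr1 (green, 10 lowest) lie furthest from the cloud in both libraries, and Pearson's r across genes was 0.38 as a description.

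A list of 10 other genes linked to the pericentral sinusoid was read the same way. All 10 were higher in pericentral-type cells of both libraries, and 6 were at least 1.5-fold higher in both. The stricter cells gave 9 of 9 and 5. Of all genes, 0.927% were that far higher in both libraries, and 0.622% in the stricter cells. Dkk3, a secreted Dickkopf protein, and Gas6, the ligand of TAM receptors, had stricter log2 ratios of 0.65 and 0.46, and 0.57 and 0.61. Sema3d, a guidance ligand, had 0.90 and 0.77. Plxnc1, a semaphorin receptor, differed little, at 0.15 and 0.07. Of the list of periportal genes, 8 of 10 compared were lower in pericentral-type cells of both libraries, and 5 were at least 1.5-fold lower. The stricter cells gave 9 of 9 and 6. Of all genes, 0.338% were that far lower in both libraries, and 0.391% in the stricter cells. The lists were chosen with earlier results of these data known, and the median zone ratio over all genes was 0.01 and 0.03.

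The rule caps venous transcripts, and the cells that remained held a little of them. Rspo3, an R-spondin that amplifies Wnt signals and marks central vein endothelium, stood at 27.6 and 46.0 CPM in pericentral-type cells, at 5.74 and 9.48 CPM in periportal-type cells and at 1607 and 2629 CPM in venous barcodes. Wnt9b, another Wnt ligand, stood at 17.5 and 21.1 CPM against 3.97 and 6.5 CPM. Both are genes of the rule, and these levels are a description.

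Tg over WT in pericentral-type cells was compared over 10100 genes with at least 50 UMIs in both libraries together. At least 1.5-fold higher in Tg were 877 (8.68%) and lower 1136 (11.2%), with a median log2 ratio of -0.16. Scaling by TMM moved every ratio up by 0.16 and left 1102 higher and 682 lower, so of the genes past that fold 61.8% were higher instead of 43.6%. In the stricter subset 507 of 8907 genes (5.69%) were higher and 476 (5.34%) lower, with a median of -0.06.

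Among all the cells of the rule, the 10 lowest genes were Sulf1, Nbl1, Gas1, Ifi27l2a, Gpc3, Pkhd1l1, Fbln2, Fbln1, Prss23 and Cldn15, with log2 ratios from -3.39 to -2.58. Gas1, a GPI-anchored Hedgehog co-receptor, stood at 206 and 25.5 CPM. Each of these genes was held by only 5.18% to 9.46% of the WT cells, and in the stricter subset they stood at 0.62 to 8.67 CPM in WT and 0 to 5.03 CPM in Tg. They moved with the mesothelial genes (489.8 and 57.2 CPM in all cells, 11.8 and 11.0 CPM in the subset), whose part in these values was not tested. Gsn, an actin-severing protein among the 10 highest, had 76.3% of the UMIs of one library in 1 cell and stood at 2.79 and 2.74 CPM in the subset. The genes named below are those of the stricter subset.

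Depp1, a FOXO-induced regulator of autophagy, stood furthest apart. Its level was 8.02 (5.56–11.2) CPM in WT and 94.1 (84.1–105) CPM in Tg, and in the stricter cells 6.5 and 111 CPM, a 17.1-fold difference (log2 4.10, 3.45 to 4.81). It was held by 3.03% and 21.7% of the stricter cells, and by 0.80% and 2.59% of the lymphocyte barcodes. In periportal-type cells the stricter log2 ratio was 3.46, so the difference was shared along the sinusoid. Depp1 was also higher in the Tg library in lymphocyte barcodes (1.48 and 6.08 CPM) and in hepatocyte-rich barcodes (16.6 and 33.4 CPM), at lower levels than in the Tg pericentral-type cells. Of its UMIs in the stricter Tg cells, 2.78% were estimated as hepatocyte-derived. Depp1 lies on chromosome 6 (chr6:116650609-116652794, GRCm38).

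Egr1, an immediate early transcription factor, stood at 14.9 and 79.8 CPM in all cells and at 7.12 and 45.7 CPM in the stricter cells (log2 2.68, 2.02 to 3.40). It did not stand higher in Tg lymphocyte barcodes (43.7 and 38.2 CPM) or hepatocyte-rich barcodes (71.0 and 24.2 CPM). Adamts1, a secreted protease of proteoglycans, stood at 86.4 and 177 CPM, and at 99.7 and 239.7 CPM in the stricter cells (log2 1.27, 1.06 to 1.47). In lymphocyte barcodes it stood at 0.280 and 0.531 CPM. Adm, the vasodilator peptide adrenomedullin, stood at 24.2 and 48.9 CPM in the stricter cells. Stmn1, a microtubule-destabilising protein, stood at 16.4 and 37.5 CPM there, but was held by 6.53% and 6.30% of cells, and 1 cell had 19.9% of its UMIs in one library. Isg15 and Rsad2, both induced by interferon, were also among the 10 highest, with Dennd4c, Ipmk and G2e3 at 1.87-fold to 1.92-fold higher in Tg. All these genes were also above 0 in stricter periportal-type cells. Log2 ratios there were 1.80 for Egr1, 0.98 for Adamts1, 0.71 for Adm, 0.54 for Isg15 and 0.48 for Rsad2.

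On the low side, Dbp, a clock-controlled transcription factor, led with 234 and 93.8 CPM in all cells and 239 and 89.6 CPM in the stricter cells (log2 -1.42, -1.65 to -1.19). In lymphocyte barcodes it stood at 14.8 and 18 CPM, and in hepatocyte-rich barcodes at 76.7 and 54.4 CPM. Bcam, a laminin receptor, stood at 70.0 and 29.7 CPM in the stricter cells (log2 -1.24, -1.66 to -0.83). Bambi, a pseudoreceptor that damps TGF-beta and BMP signals, stood at 35.0 and 16 CPM. Lefty1, a secreted antagonist of Nodal, stood at 29.1 and 13.3 CPM, and Ntf3, a neurotrophin, at 31.0 and 15.1 CPM. Vti1a, Mical3, Spaca6, B4galt4 and Zfp846 completed the 10 lowest, at 2.01-fold to 2.30-fold lower in Tg. The differences of Dbp and Bcam had the same sign in periportal-type cells (-0.90 and -0.97), whereas Ntf3 (0.17) and Zfp846 (0.33) had the other sign there and Mical3 lay at -0.07.

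**Figure D4:**
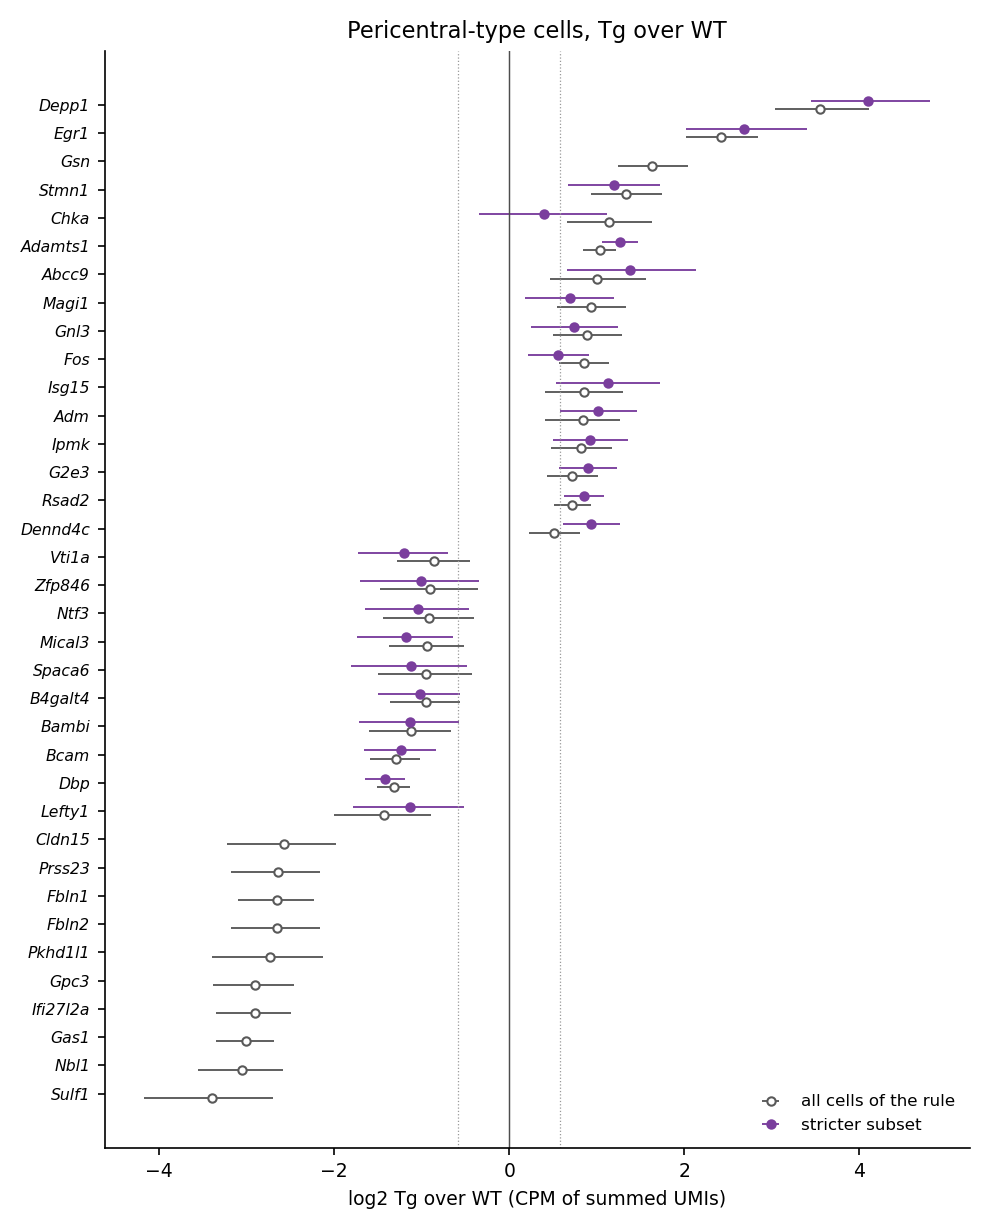
Log2 ratio of Tg over WT in pericentral-type cells for the genes named by rule, with exact 95% counting intervals, in all cells (open) and the stricter subset (purple, shown with at least 50 UMIs); dotted lines mark 1.5-fold. Depp1 and Egr1 lie furthest right in both, and the 10 genes from Cldn15 to Sulf1 have too few UMIs in the subset to be drawn.

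The pericentral markers themselves were lower in CPM in Tg. In the stricter cells Kit stood at 1125 (1088–1162) and 962 (921–1004) CPM, Wnt2 at 717 (688–747) and 623 (591–657) CPM and Thbd at 510.0 (486–535) and 362 (337–388) CPM. Their log2 ratios were -0.23, -0.20 and -0.50, none past 1.5-fold, and the rule bounds them. Among all cells, 41 of the 85 zone-high genes were at least 1.5-fold lower in Tg and 3 higher, with a median of -0.56. Over all genes compared, 11.2% were at least 1.5-fold lower and 8.68% higher, with a median of -0.16. Of the 85, 50 had at least 50 UMIs in the stricter cells; 18 of those 50 were at least 1.5-fold lower in all cells (median -0.40) and 6 in the stricter cells (median -0.16). The 51 genes that were zone-high in the stricter cells themselves, 26 of them among the 85, had a median of -0.06, with 2 lower and 3 higher. Over all genes in the stricter cells, 5.34% were lower and 5.69% higher by that fold, with a median of -0.06.

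Identity and vascular genes were mostly slightly lower in Tg. In the stricter cells 16 of 17 VEGF and endothelial receptors and 17 of 17 adhesion and basement membrane genes were below 0, beside 5203 of 8907 genes in all; none reached 1.5-fold, and the medians were -0.18 and -0.27. In all cells of the rule the medians were -0.34 and -0.39, beside -0.16 for all genes. Relative to the median of all genes they lay at -0.19 and -0.23 in all cells, and at -0.04 and -0.08 once hepatocyte-derived UMIs were subtracted. Eng stood at 2257 and 1716 CPM (log2 -0.40) and Cldn5, a tight junction protein, at 789.6 and 567 CPM (-0.48). Flt1, a VEGF receptor, differed by -0.03. Of 16 endothelial transcription factors, 10 were lower, with a median of -0.18 (-0.35 in all cells, which relative to all genes is -0.20, and -0.05 once hepatocyte-derived UMIs were subtracted). Nr2f2, the venous fate factor COUP-TFII, stood at 1054 and 780.2 CPM (-0.43) and Zeb2 at 288 and 204 CPM (-0.50). Klf2, which responds to shear stress, stood at 840.1 and 931 CPM (0.15).

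Genes of the scavenging endothelium were read next. Of all 8907 genes in the stricter cells, 5203 were lower in Tg. Of 11 scavenger and lectin receptors, 4 were higher and 7 lower in Tg, with a median of -0.05 (-0.28 in all cells). Stab1 and the mannose receptor Mrc1 differed by -0.17 and -0.11, and Lyve1, a hyaluronan receptor, by 0.31 (232 and 288 CPM). Lrp1 differed by 2.07 (5.88 and 24.7 CPM), but 68.8% of its UMIs in the Tg cells were estimated as hepatocyte-derived. Of 15 genes of endocytosis and lysosomes 5 were higher and 10 lower, with a median of -0.12, and none reached 1.5-fold. Of 9 haemostasis genes 3 were higher, with a median of -0.21, and F8, coagulation factor VIII, stood at 1098 and 1189.6 CPM. In all cells 12 of 13 were lower, 3 at least 1.5-fold, and 1 was at least 1.5-fold higher, with a median of -0.45. Of all 10100 genes in those cells, 6862 were lower, 11.2% at least 1.5-fold lower and 8.68% at least 1.5-fold higher.

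Ligands that endothelium sends to its neighbours were mixed: 5 of 13 angiocrine and Notch genes were higher and 8 lower, with a median of -0.08. Of all genes in the stricter cells, 5.69% were at least 1.5-fold higher and 5.34% lower. Bmp2, which controls hepatocyte hepcidin and thereby iron, was among the most abundant, at 2732 and 3152 CPM (log2 0.21, 0.16 to 0.25). Its relative Bmp6 stood at 128 and 97.9 CPM (-0.39). Dll1, a Notch ligand, stood at 37.2 and 22.0 CPM (-0.76), the 1 gene of the list at least 1.5-fold lower. Cxcl12, a chemokine, was the 1 at least 1.5-fold higher, at 9.29 and 16.01 CPM (0.79), with 51.0% of its Tg UMIs estimated as hepatocyte-derived. Hgf, the hepatocyte growth factor, stood at 73.1 and 83.2 CPM (0.19).

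Interferon-response genes stood higher in Tg as a list. In the stricter cells 18 of 22 were above 0, 5 were at least 1.5-fold higher and none lower, and the median was 0.36, beside -0.06 for all genes. Of all 8907 genes there, 3704 were above 0, 5.69% at least 1.5-fold higher and 5.34% lower. In all cells of the rule 11 of 23 were above 0 and the median was -0.01, beside -0.16; TMM scaling puts that list median above 0. Isg15, a ubiquitin-like protein, stood at 13.0 and 28.4 CPM in the stricter cells (log2 1.12). Rsad2, the antiviral enzyme viperin, stood at 87.6 and 159 CPM (0.86). Ifi44 stood at 42.1 and 71.3 CPM (0.76), Usp18, a deconjugase of ISG15, at 9.91 and 19.2 CPM (0.96) and Irf7 at 13.6 and 22.0 CPM (0.69). Ifitm3, which blocks viral entry at membranes, stood at 923 and 1165 CPM (0.34). Gbp2 was the exception with the largest move between the cell sets, from 103 and 29.9 CPM (-1.79) in all cells to 42.1 and 34.8 CPM (-0.28). In lymphocyte barcodes Isg15 stood at 40.8 and 47.6 CPM and Rsad2 at 6.47 and 6.02 CPM, while Ifitm3 stood at 57.1 and 217 CPM. In hepatocyte-rich barcodes Isg15 stood at 8.81 and 20.8 CPM and Ifitm3 at 971 and 1388 CPM.

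The promoters of the interferon-response list were searched for 1 known motif. RefSeq windows from 250 bases before to 50 after the start (GRCm38.p6) matched 19 of the 24 genes of the list, and both strands were searched for TTTC, any 2 bases and TTTC again, the core of the interferon-stimulated response element. It lay in 9 of the 19 (47.4%), against 3.46% of 27025 genes, which is a description of the list and not of binding. The 9 included Gbp2, which stood lower in Tg in both cell sets. Windows of 60 bases are shown for 3 genes that stood higher in the stricter Tg cells, Isg15 (chr4:156200856-156200915, minus strand), Rsad2 (chr12:26456538-26456597, minus strand) and Ifit1 (chr19:34640769-34640828, plus strand). Capitals mark the matches, overlapping ones joined.
Isg15: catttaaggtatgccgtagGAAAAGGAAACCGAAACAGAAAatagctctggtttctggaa
Rsad2: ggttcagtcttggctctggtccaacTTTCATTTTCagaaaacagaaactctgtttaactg
Ifit1: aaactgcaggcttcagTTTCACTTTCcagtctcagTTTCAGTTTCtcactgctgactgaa
Isg15 and Ifit1 each hold more than 1 match and Rsad2 holds 1, while their levels run from 12.1 CPM (Ifit1, WT) to 159 CPM (Rsad2, Tg).

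Clock genes stood apart in both directions. Of 12 compared in the stricter cells 8 were lower in Tg, 4 of them at least 1.5-fold, and 4 were higher, 1 of them at least 1.5-fold, with a median of -0.45 (-0.40 in all cells). Of all 8907 genes there, 5203 were lower, 5.34% at least 1.5-fold lower and 5.69% at least 1.5-fold higher. Dbp, Tef and Hlf, related PAR bZIP factors driven by the clock, stood at 239 and 89.6, 90.1 and 52.1, and 50.5 and 27.0 CPM (log2 -1.42, -0.79 and -0.90). Cry2, a repressor of the clock, stood at 13.9 and 7.78 CPM (-0.84), and Nr1d1, which represses Arntl, at 279 and 196 CPM (-0.51). Arntl, the activator that pairs with Clock, stood at 14.6 and 25.2 CPM (0.79), and Bhlhe40 at 70.6 and 92.4 CPM (0.39). The labels give no hour of collection, and its part was not tested. The E-box CACGTG, the site of the Clock and Arntl pair, lay in the RefSeq windows of 4 of 13 matched clock genes (30.8%), against 6.86% of all. The D-box, searched as TTATG, any base and AA, lay in 2 of 13 (15.4%), against 3.63%. One gene with the E-box is Tef (chr15:81802519-81802578, plus strand, GRCm38.p6), shown with the site in capitals because it was among the genes lower in Tg.
Tef: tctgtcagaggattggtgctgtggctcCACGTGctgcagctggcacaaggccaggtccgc

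Stress-induced genes were also higher on balance. Of all 8907 genes, 3704 were above 0 and 5.69% at least 1.5-fold higher. Of 12 immediate early genes 9 were above 0 in the stricter cells, 2 at least 1.5-fold, with a median of 0.42 (0.38 in all cells). Zfp36, which destabilises AU-rich messages, stood at 96.9 and 158 CPM (log2 0.71), Dusp1, a MAP kinase phosphatase, at 366 and 512 CPM (0.48), and Jun at 294 and 399 CPM (0.44). Fosb ran the other way, at 84.8 and 59.5 CPM (-0.51). Of 10 heat shock genes 8 were above 0, with a median of 0.39 (0.23 in all cells) and 1 at least 1.5-fold higher, the inducible chaperone gene Hspa1b at 13.9 and 22.4 CPM. These groups respond to tissue dissociation as well as to events in the animal, and the part of dissociation was not tested. Of 12 endoplasmic reticulum chaperones 10 were above 0 with a median of 0.09, and Hspa5, the main one, stood at 304 and 379 CPM. Of 14 NF-kB targets and chemokines 6 were above 0, with a median of -0.10; Cxcl10 stood at 40.9 and 66.8 CPM (0.71).

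**Figure D5:**
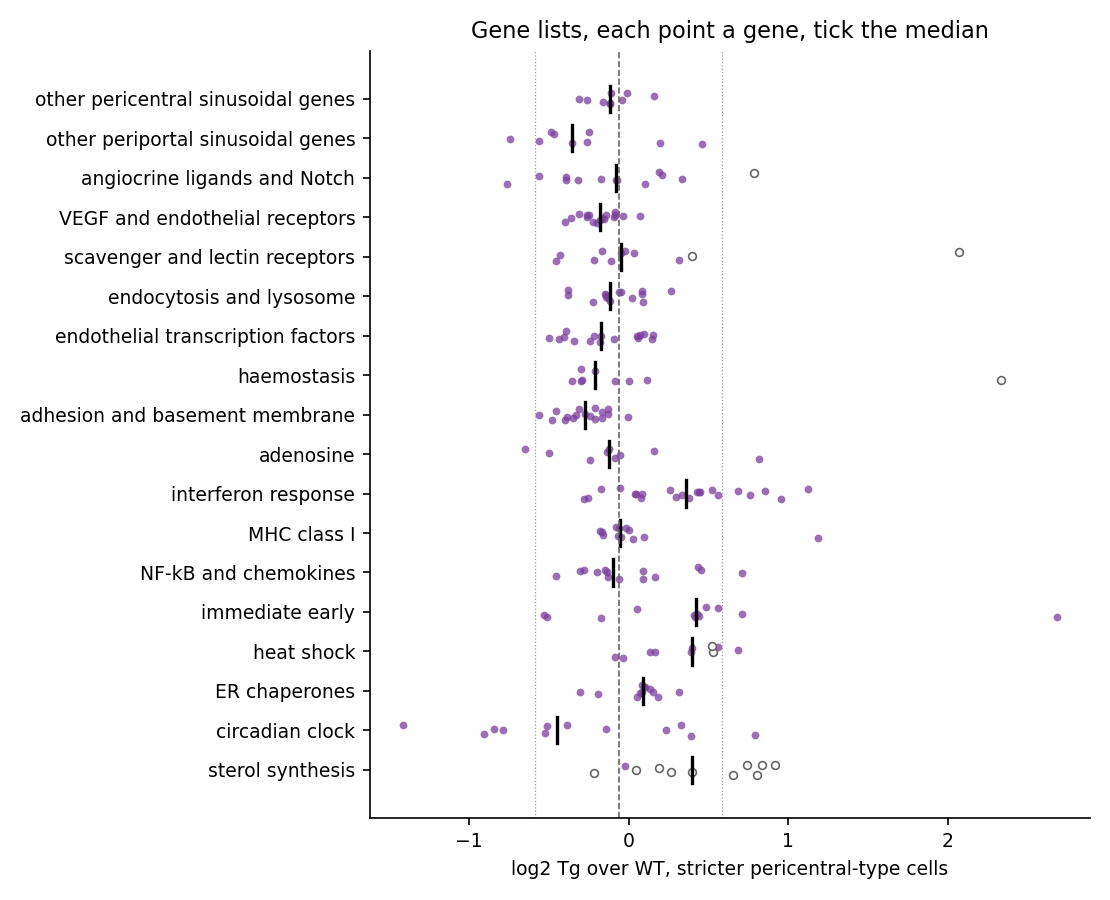
Log2 ratio of Tg over WT in the stricter pericentral-type cells for each compared gene of 18 lists (points), with the list median (tick), the median of all genes at -0.06 (dashed line) and 1.5-fold (dotted lines). Open points are genes with over 20% of their Tg UMIs estimated as hepatocyte-derived; the interferon, immediate early, heat shock and sterol medians lie right of the dashed line and the clock median left of it.

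Adenosine kinase, the product of the transgene, phosphorylates adenosine, and genes of adenosine handling were read as a list. Adora2a, the receptor through which adenosine raises cyclic AMP, stood at 12.0 and 20.2 CPM in all cells and at 14.6 and 25.6 CPM in the stricter cells (log2 0.82, 0.23 to 1.41). Adora2b had no UMI in the pericentral-type cells of either library. Ada, which deaminates adenosine to inosine, stood at 101 and 64.5 CPM (log2 -0.65, -0.94 to -0.36). Slc29a1, the equilibrative nucleoside transporter, was the most abundant of the list and stood at 779 and 715 CPM (-0.12). Of 9 genes compared, 2 were higher and 7 lower in Tg, 1 of each at least 1.5-fold, with a median of -0.12 (-0.27 in all cells). Over all genes in the stricter cells, 5.69% were higher and 5.34% lower by that fold. Of 8 genes of DNA methylation and the methionine cycle, which uses adenosine-containing intermediates, 3 were higher and 5 lower. Mat2a, the synthetase of S-adenosylmethionine, stood at 233 and 297 CPM (0.35).

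Antigen presentation by class I differed little: 3 of 12 genes were above 0, with a median of -0.05, and B2m stood at 2767 and 2959 CPM. Nlrc5, the transactivator of class I genes, was the 1 gene at least 1.5-fold higher, at 7.43 and 16.9 CPM, beside 5.69% of all genes. Cd74 of class II stood at 127 and 26.7 CPM in all cells and at 16.4 and 12.3 CPM in the stricter cells, beside B and plasma cell markers at 4341 and 76.0 CPM in all cells, whose part was not tested. Sterol synthesis genes were 11 of 12 higher in all cells, with a median of 1.12, and 9 of 11 in the stricter cells, with a median of 0.40. Hmgcs1 stood at 42.4 and 74.1 CPM there, with 39.7% of its Tg UMIs estimated as hepatocyte-derived, and the other 4 genes past 1.5-fold had 43.1% to 80.7%. Cycling cells were rare: at least 2 UMIs of Mki67 and Top2a together were held by 2 of 772 WT cells and 5 of 774 Tg cells.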

How the data were processed

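The 2 libraries of liver non-parenchymal cells, 1 per genotype, were analysed from the deposited matrices of whole-number UMI counts per gene and barcode. The authors made these counts with Cell Ranger 6.1.2 on GRCm38 (mm10), per the submitters' processing notes; the series text names SoupX, an ambient RNA correction, and whether these counts precede it is not stated. They are whole numbers and were treated as not corrected, so hepatocyte-derived percentages would be what remained if they were. UMIs were summed per library and cell type with Python 3.11.15, numpy 2.4.6, scipy 1.17.1 and pandas 2.3.3, and given as CPM with exact Poisson intervals; ratios have exact conditional binomial intervals. Genes with at least 50 UMIs were compared, and 1.5-fold was the size counted. TMM factors came from edgeR 4.0.16 and size factors from DESeq2 1.42.0, with no test, since each group is 1 library. Scrublet (scanpy 1.11.5) marked 0 barcodes by its automatic threshold; those with scores above 0.2 (479 and 404 of the kept barcodes) were kept and left out as an alternative.

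Genes named were the 10 highest and 10 lowest with at least 100 UMIs, held by at least 5% of cells in a library and at most 20% estimated as hepatocyte-derived; genes of the rule, predicted, mitochondrial, ribosomal, haemoglobin and immunoglobulin genes and other cell types' markers were left out, and list genes could be named too. The same rule was applied to the stricter subset, after the data had been seen. The hepatocyte-derived estimate scales the profile of hepatocyte-rich barcodes (at least 20% hepatocyte-list UMIs) to the list's UMIs. The members and lists were chosen with earlier results of these data known. Code was tested on simulated counts. One gene's result is not reported here.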

Additional observations from a re-analysis of the deposited data

How the results depend on the processing

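No paired analysis was possible because each group is 1 library, and no library could be left out. The stricter subset was chosen after seeing the data. The count of genes at least 1.5-fold higher in Tg, 877, became 582 with hepatocyte-derived UMIs subtracted, 2005 with no minimum, 406 with at least 200 UMIs, 377 thinned to 1000 UMIs and 507 in the stricter subset. The count lower, 1136, became 682 with TMM, 683 with DESeq2 size factors, 737 with hepatocyte-derived UMIs subtracted, 2768 with no minimum, 392 with at least 200 UMIs, 382 thinned, 605 in cells with no UMI of immune or platelet markers and 476 in the stricter subset. The count of genes higher in pericentral-type cells of both libraries, 85, became 19 with at least 200 UMIs, 27 thinned and 51 in the stricter subset, of which 26 are among the 85; the count lower, 31, became 14 with at least 200 UMIs. The sterol list's median above that of all genes, 1.28, became 0.29 with hepatocyte-derived UMIs subtracted and 0.46 in the stricter subset; that of the proliferation list, 0.82, became 1.70 with no minimum and 0.15 at a margin of at least 2. The Tg share of zone-typed barcodes, 47.0%, became 51.6% and 50.9% thinned to 1000 and 2000 UMIs, and its share of kept barcodes 6.19% and 7.22%, so that the difference between libraries in that share turned to 0.352 and 1.01 points. Thinning left out barcodes below the depth used. At a margin of at least 2 the WT share of zone-typed barcodes was 64.7% and the shares of kept barcodes 4.98% and 4.11%; in the stricter subset the latter were 4.85% and 3.64%. The log2 ratio of Tg over WT turned sign for Ahcy (-0.83), Insig1 (-0.40), Msmo1 (-0.68) and Sc5d (-0.84) with hepatocyte-derived UMIs subtracted, for Galnt15 (0.20), Hspb1 (0.13) and Il33 (0.33) in the stricter subset, for Gsn (-0.52) at a margin of at least 2 and for Hspb1 (0.29) and Pnp2 (0.20) without immune or platelet-marker UMIs. The causes were not tested. Of 94 genes read in the text or lists and at least 1.5-fold apart, 52 stayed so under every alternative in which they met the count minimum. A gene below that minimum in an alternative was not judged there, as for Sulf1, Nbl1 and Gas1 in the stricter subset. Depp1 ran from 3.55 to 4.39 and Dbp from -1.44 to -1.09.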
